A study of Arabidopsis thaliana with 4 samples.

Results

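Beside the centromere of Arabidopsis thaliana chromosome 2 lies a nuclear copy of mitochondrial DNA, and the genes annotated in it are called insertion genes here. They were taken as the rows of the gene table with identifiers from AT2G07660 to AT2G07840 by locus number, without transposable element genes (TE genes), which gave 123 of 38194 gene rows. Small RNAs of whole seedlings, 10 days after germination, were sequenced from 2 groups with 2 libraries each. The control group is the PORI line, and the other group is PORI combined with rpt2a, written PORIxrpt2a in the sample titles. Both groups therefore carry PORI, which the labels do not spell out, and the rpt2a allele is not named further. RPT2a encodes one of the ATPases at the base of the proteasome's regulatory cap, and the study concerns its role in post-transcriptional silencing and RNA quality control. Plants grew on plates or soil at 22°C in long days, and the labels do not say whether the 2 libraries of a group came from separate plants, so p-values measure a spread that may be technical.

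Plant mitochondrial DNA moves into the nucleus, and the copy on chromosome 2 of the Col-0 accession is a textbook case of a large recent transfer. Its genes look like mitochondrial genes but lie in heterochromatin of the nucleus, where RNA polymerase IV and the Dicer-like enzyme DCL3 make 24 nt small interfering RNAs (siRNAs) that guide DNA methylation. DCL2 makes 22 nt siRNAs and DCL4 makes 21 nt siRNAs of post-transcriptional silencing, while breakdown of abundant RNA leaves fragments of no fixed length. A read that is identical in the nuclear copy and in the mitochondrial genome can come from either, and how such reads were assigned is not given in the sources used here. The part of mitochondrial reads in the levels of the insertion genes was not tested.

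The 123 rows comprised 71 protein-coding genes, 27 transcribed pseudogenes, 21 tRNA genes, 2 other pseudogenes and 2 long non-coding RNA genes. In all, 121 had at least 1 count, and the 2 without any were the long non-coding RNA genes AT2G07805 and AT2G07840. By gene order on the TAIR10.1 assembly, 115 of the 123 formed one run. The other 8 lay outside it and held 471 of the 23655 counts. They were ABCC13, named as an ABC transporter, MCM5, a subunit of the replicative DNA helicase, AT2G07750, AT2G07760, AT2G07800 and AT2G07810, which lie just beyond the run, and the 2 long non-coding RNA genes, which lie much farther along. The run also held 54 other rows whose identifiers fall outside the range, with 7910 counts. Within the 123 rows the protein-coding genes held 14942 counts, the transcribed pseudogenes 6565 and the tRNA genes 2145.

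The gene table held 4696170 and 4038459 counts in PORI libraries 1 and 2, and 4806891 and 2886928 in PORIxrpt2a libraries 1 and 2. PORIxrpt2a library 2 was the shallowest and stood apart, with correlations of log2 levels of 0.699 and 0.718 with the PORI libraries and 0.821 with PORIxrpt2a library 1, against 0.914 between the PORI libraries. Of leaf markers, the 4 RBCS genes of the small subunit of Rubisco held 828 to 2503 counts per library and the 3 CAB genes of chlorophyll-binding proteins 1285 to 3077, while 2 root markers held 56 to 234 and 4 seed storage genes 0 to 3. Chloroplast genome rows took 19.3% and 18.8% of gene-table counts in PORI and 17.5% and 14.2% in PORIxrpt2a. The part of this difference in the shares given below was not tested. RPT2a (AT4G29040) itself had 27, 21, 38 and 8 small RNA reads in the libraries in that order, which are no measure of its mRNA and so do not check the genotypes.

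Small RNAs of the insertion genes were most often 24 nt long, with a smaller maximum at 22 nt in all 4 libraries, which in PORI library 1 hardly exceeded the 23 nt reads (14.3% against 14.0%). Lengths other than 21, 22 and 24 nt made up 46.5% and 47.0% of their reads in PORI and 31.3% and 29.1% in PORIxrpt2a. In PORI libraries 1 and 2, 30.7% and 28.9% of their reads were 24 nt long, with 95% Wilson intervals of 29.5% to 31.9% and 27.6% to 30.3%. In PORIxrpt2a libraries 1 and 2 these shares were 39.1% and 33.2%, with intervals of 38.1% to 40.1% and 31.8% to 34.7%. The PORIxrpt2a libraries both lay above both PORI libraries, by 6.35 percentage points on average, and an exact two-sided permutation test gave p = 0.333, the smallest that 2 against 2 libraries allow. Without PORIxrpt2a library 1 the difference was 3.44 points. The direction of the mean difference depended on the reads counted. Of the 21, 22 and 24 nt reads alone, the 24 nt reads made up 57.4% and 54.6% in PORI and 56.8% and 46.9% in PORIxrpt2a, a difference of -4.13 points. There the groups overlapped, since PORIxrpt2a library 1 lay between the PORI libraries and only library 2 lay below them. The intervals cover counting error only.

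**Figure D1:**
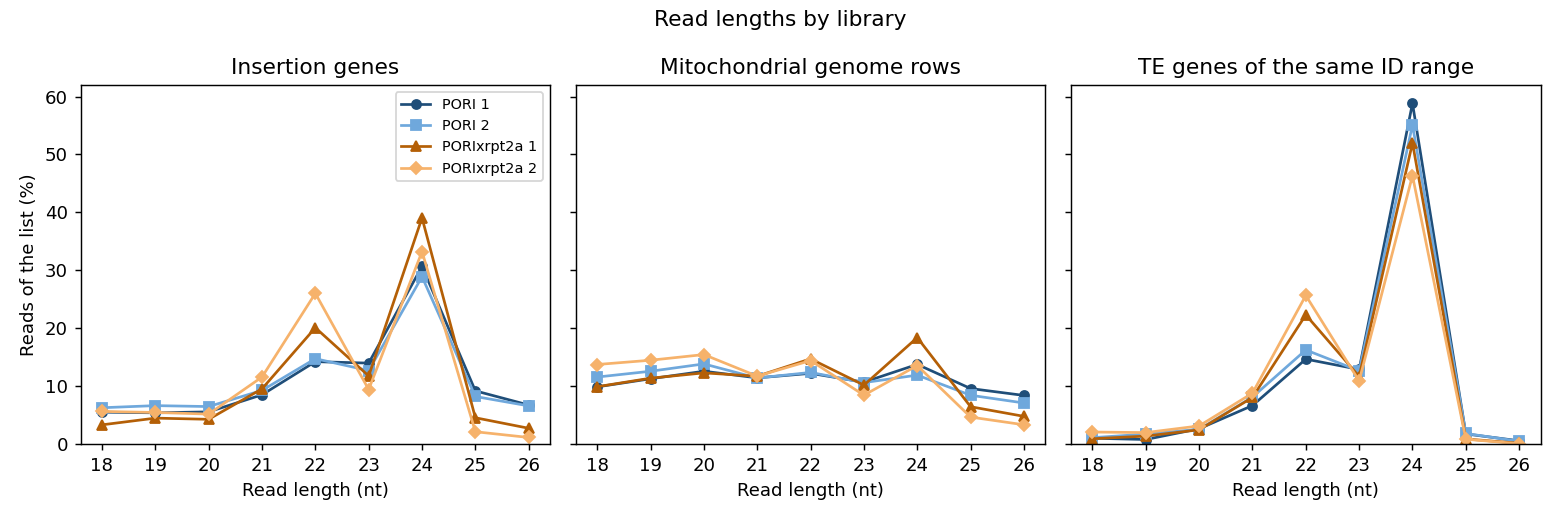
Percentage of reads of each length from 18 to 26 nt (y axis) for the insertion genes, the rows of the mitochondrial genome and the TE genes of the same identifier range, with one line per library. The insertion genes peak at 24 nt with 28.9% to 39.1% of their reads, the mitochondrial rows stay at 18.4% or less there, and the TE genes reach 46.4% to 58.8%.

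The 22 nt reads of the insertion genes took 14.3% and 14.8% of their reads in PORI and 20.1% and 26.04% in PORIxrpt2a. The Wilson intervals of the PORI libraries, 13.4% to 15.2% and 13.7% to 15.8%, did not reach those of PORIxrpt2a, 19.3% to 20.9% and 24.7% to 27.4%, and the mean difference was 8.57 points (exact permutation p = 0.333). Reads of 21 nt took 8.53% and 9.29% in PORI and 9.56% and 11.6% in PORIxrpt2a. The lengths outside the siRNA range went the other way, since reads of 25 and 26 nt together took 16.0% and 14.9% in PORI and 7.33% and 3.33% in PORIxrpt2a. Over the whole gene table the same 2 lengths also took less, 16.6% and 14.5% in PORI and 12.5% and 9.22% in PORIxrpt2a.

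The rows of the mitochondrial genome, which carry the genes that the insertion copies, spread over more lengths, with 7.12% to 13.9% of reads at each length in PORI, 4.81% to 18.4% in PORIxrpt2a library 1 and 3.36% to 15.5% in library 2. Their most frequent length was 24 nt in PORI library 1 and PORIxrpt2a library 1 and 20 nt in the other two. Their 24 nt share was 13.8% and 11.9% in PORI and 18.4% and 13.6% in PORIxrpt2a. Within each library the 24 nt share of the insertion genes exceeded it by 16.9 and 17.0 points in PORI and by 20.7 and 19.7 points in PORIxrpt2a. All 4 libraries show the same direction, and an exact paired permutation test over them gave p = 0.125, the smallest it can give.

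Genes beside the insertion were richer still in 24 nt reads. Flanking rows were taken from the 100 loci before the run and the 100 loci after AT2G07810, which lies just beyond its end. The loci between the end of the run and AT2G07810 were left out. These 66 non-TE flanking rows had a 24 nt share of 51.2% and 49.9% in PORI and 49.5% and 44.3% in PORIxrpt2a. The insertion genes minus these rows gave -20.5 and -21.02 points in PORI and -10.5 and -11.1 points in PORIxrpt2a (exact paired p = 0.125). The gap to the neighbouring genes was smaller in both PORIxrpt2a libraries, by 10.0 points on average (exact permutation p = 0.333). The 29 TE genes with identifiers of the same range held 58.8% and 55.1% of 24 nt reads in PORI and 52.0% and 46.4% in PORIxrpt2a. Their 22 nt share was 14.7% and 16.3% in PORI and 22.3% and 25.7% in PORIxrpt2a, again higher in both PORIxrpt2a libraries.

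The insertion genes as a whole held 6014 and 4382 counts in the PORI libraries and 9319 and 3940 in PORIxrpt2a. As a share of gene-table counts this was 0.128% and 0.109% in PORI and 0.194% and 0.136% in PORIxrpt2a, or 0.118% ± 0.0138 and 0.165% ± 0.0406 (SD, n = 2 each). Both PORIxrpt2a libraries lay above both PORI libraries, and the exact permutation test gave p = 0.333. The difference of 0.0469 points was 0.0182 without PORIxrpt2a library 1 and 0.0756 without library 2. In whole seedlings, a change in the number of cells of a type and a change in RNA per cell cannot be told apart. PORIxrpt2a library 2 lay close to PORI library 1, with Wilson intervals of 0.132% to 0.141% and 0.125% to 0.131%.

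Split by length, both PORIxrpt2a libraries were higher at the siRNA sizes. Among all 24 nt reads of the gene table, insertion genes took 0.290% and 0.265% in PORI and 0.583% and 0.529% in PORIxrpt2a, a ratio of means of 2.00. Among 22 nt reads they took 0.166% and 0.145% in PORI and 0.324% and 0.321% in PORIxrpt2a, a ratio of 2.07. Among 21 nt reads they took 0.0549% and 0.0526% in PORI and 0.0970% and 0.0861% in PORIxrpt2a, a ratio of 1.70, and each of these 3 comparisons gave an exact permutation p of 0.333. Part of the step at 22 and 21 nt was shared by other genes, since the TMM factors, which follow the typical gene's share, had a PORIxrpt2a over PORI ratio of 1.67 at 22 nt, 1.38 at 21 nt and 0.981 at 24 nt. Reads of 25 nt showed no such step, at 0.145% and 0.121% in PORI and 0.139% and 0.0558% in PORIxrpt2a.

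**Figure D2:**
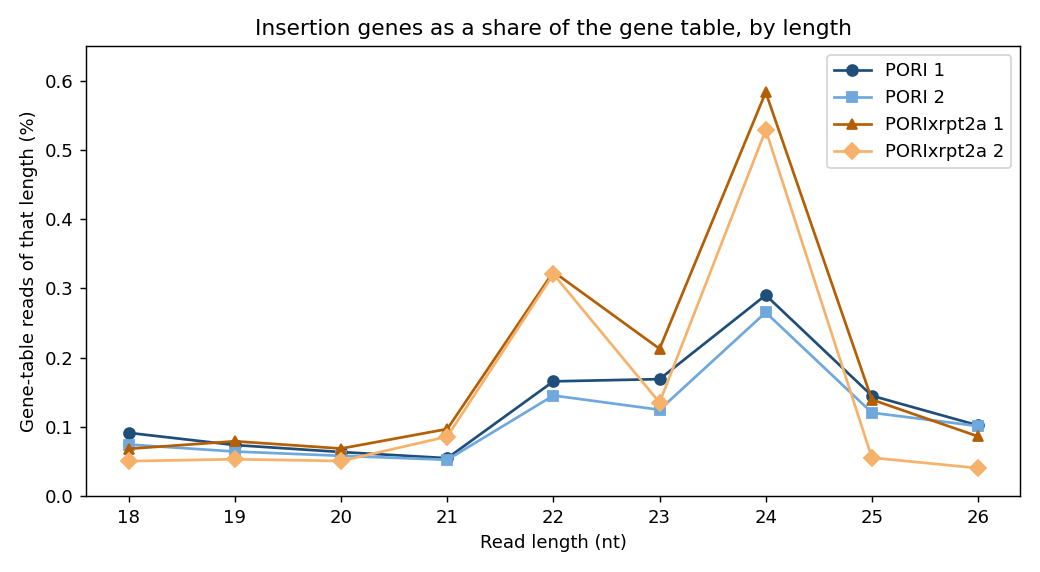
Reads of the insertion genes as a percentage of all gene-table reads of the same length (y axis, starting at 0), by read length from 18 to 26 nt, one line per library. At 21, 22 and 24 nt both PORIxrpt2a libraries lie above both PORI libraries, and at 24 nt they lie at 0.583% and 0.529% against 0.290% and 0.265%.

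Set against the mitochondrial rows of the same library, the insertion genes were also higher in PORIxrpt2a. The ratio of their 22 nt counts to those of the mitochondrial rows was 0.263 and 0.238 in PORI and 0.495 and 0.456 in PORIxrpt2a, and that of 24 nt counts was 0.503 and 0.483 in PORI and 0.770 and 0.620 in PORIxrpt2a. Over all lengths the log2 ratio was -2.15 and -2.33 in PORI and -1.46 and -1.98 in PORIxrpt2a, a difference of 0.51 (exact permutation p = 0.333), or 0.25 without PORIxrpt2a library 1 and 0.78 without library 2. The mitochondrial rows themselves took 0.568% and 0.544% of gene-table counts in PORI and 0.534% and 0.540% in PORIxrpt2a. Set against the TE genes of the same range, the ratio of 24 nt counts was 2.33 and 2.37 in PORI and 2.46 and 2.71 in PORIxrpt2a. The ratio of 22 nt counts went the other way, at 4.33 and 4.09 in PORI and 2.95 and 3.83 in PORIxrpt2a, as did that of 21 nt counts, at 5.7 and 5.15 in PORI and 3.87 and 4.97 in PORIxrpt2a (exact permutation p = 0.333 for each).

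Gene by gene, edgeR's quasi-likelihood test on the whole gene table called none of the insertion genes at an adjusted p of 0.05, a threshold that 2 of 8110 tested genes passed (0.0247%). The low-count filter left 80 of the 123 insertion genes in the test over all lengths, and 30 of the 80 had an unadjusted p under 0.05, against 23% of all tested genes. Of the 80, 57 had a log2 fold change above 0 and 23 below, with a median of 0.56 against -0.036 over all tested genes. In 42 of the 80 both PORIxrpt2a libraries lay above both PORI libraries, which 27.5% of all tested genes did, and in 11 both lay below, which 29.6% did. DESeq2 called 9 of the 49 insertion genes it gave an adjusted p, all higher in PORIxrpt2a, and 15.2% of all genes it gave one. edgeR also called 9 of 121 insertion genes without the low-count filter and 9 of 69 without structural RNA and organelle genes in the fit. With the replicate number as a block it called 9 of 80. In these edgeR fits 2.29%, 6.78% and 7.35% of all tested genes were called. Without PORIxrpt2a library 1 or 2, edgeR called 24 or 18 insertion genes, beside 26.6% or 14.5% of all genes.

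In 24 nt reads 52 insertion genes were tested, of which 41 lay above 0, with a median log2 fold change of 0.90 against -0.052 over 4575 genes. In 35 of the 52 both PORIxrpt2a libraries were above both PORI libraries, against 31.2% of all genes, and in 5 both were below, against 34%. In 22 nt reads 34 were tested, with a median of 0.34 against 0.031 over 2001 genes. In 15 of the 34 both PORIxrpt2a libraries were higher and in 7 both were lower, against 34.4% and 34% of all genes. In 21 nt reads 16 were tested, with a median of 0.59 against -0.10 over 1414 genes, and 10 lay above without overlap and 5 below, against 35.8% and 35.7%. edgeR called 0 insertion genes at any of the 3 lengths, where 0% of all tested genes were called, and 21, 9 and 4 of them had an unadjusted p under 0.05 at 24, 22 and 21 nt, against 28.3%, 34% and 33.9% of all genes.

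Neighbouring lists had the same direction over all lengths. The 18 tested TE genes of the same range were all above 0, with a median log2 fold change of 1.15 over all lengths. Among the 54 other rows inside the run, 37 of 41 tested were above 0, with a median of 1.31. Of the flanking rows by chromosome order, 20 of 28 tested were above 0 (median 0.64), and of the mitochondrial rows 63 of 96 (median 0.47). In 24 nt reads alone 42 of 53 tested mitochondrial rows were above 0 (median 0.93), close to the insertion genes' median of 0.90. So were 24 of 24 other rows inside the run (1.23), 13 of 14 TE genes (1.01) and 15 of 22 flanking rows (0.42). The mitochondrial median was 0.43 at 22 nt, against 0.34 in the insertion genes, and -0.065 at 21 nt, against 0.59.

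The plot of the 30 insertion genes with the most counts shows where each library lies. Levels are in CPM, counts scaled to a common library size with TMM, edgeR's trimmed-mean normalisation, and they are not corrected for gene length, so they serve to compare libraries and not genes. Both PORIxrpt2a libraries were above both PORI libraries for 20 of the 30 genes and below for 3, against 27.5% and 29.6% of all tested genes. For the remaining 7 the groups overlapped.

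**Figure D3:**
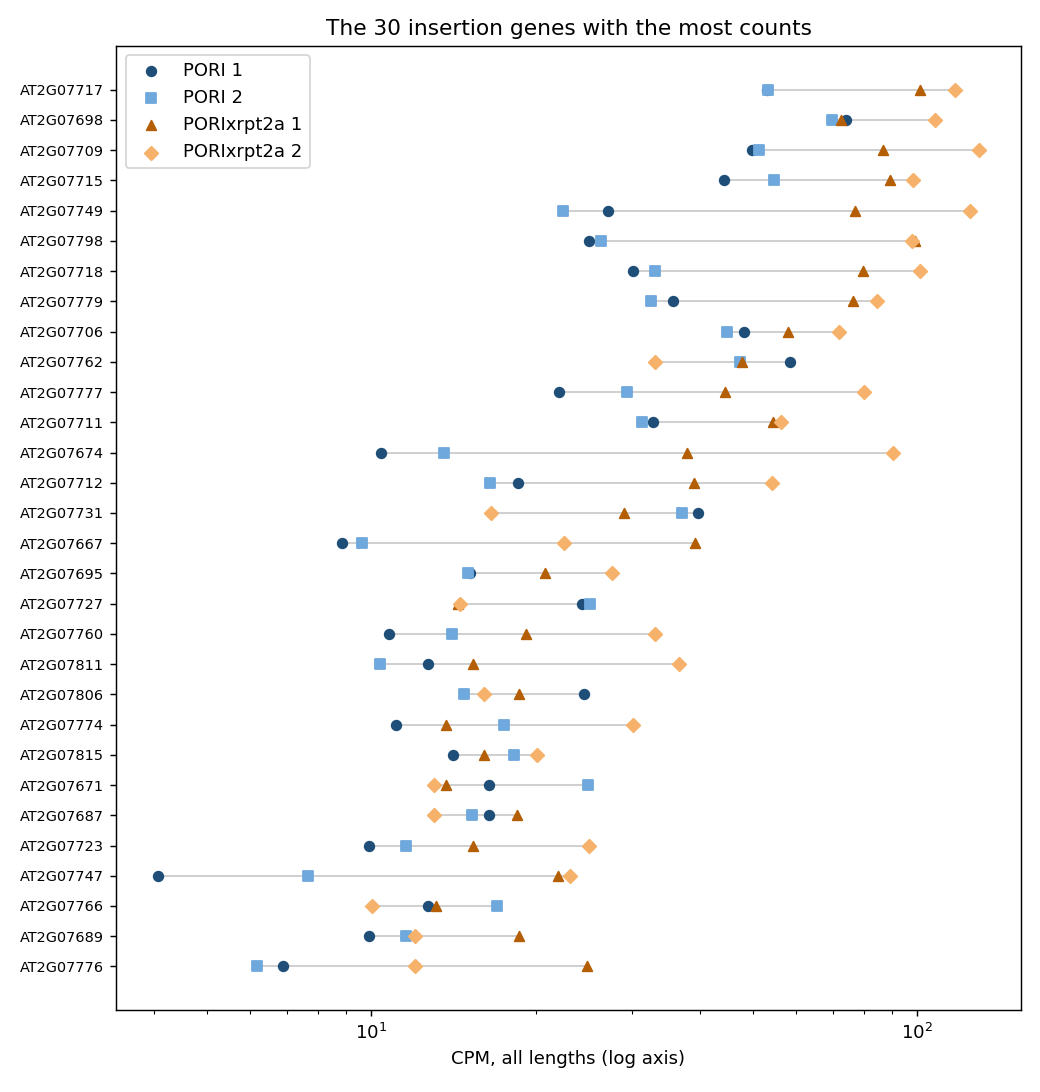
CPM over all lengths (x axis, log scale) of the 30 insertion genes with the most counts, ordered by mean level, with one symbol per library and a grey line from the lowest to the highest. In 20 of the 30 both PORIxrpt2a symbols lie to the right of both PORI symbols, and in 3 both lie to the left, against 27.5% and 29.6% of all tested genes. The 30 were ranked on the counts of both groups together, so a gene could enter through its PORIxrpt2a counts.

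AT2G07798, a protein-coding gene of which 55.6% of reads were 24 nt long, had 25.1 and 26.4 CPM in PORI and 99.1 and 97.9 in PORIxrpt2a. The libraries of a group lay close together and the groups far apart, at a log2 fold change of 1.94 ± 0.29 (SE) and an edgeR adjusted p of 0.0686. In 24 nt reads alone it had 133 and 147 CPM in PORI and 450.3 and 429.5 in PORIxrpt2a, scaled to the 24 nt library sizes.

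AT2G07749, protein-coding with 50.7% of 24 nt reads, had 27.2 and 22.4 CPM in PORI and 76.8 and 125 in PORIxrpt2a. Its log2 fold change was 2.02 ± 0.37, also with an edgeR adjusted p of 0.0686, and PORIxrpt2a library 2 was the highest. AT2G07747, a transcribed pseudogene 3 rows before it in gene order, had 4.06 and 7.65 CPM in PORI and 21.9 and 23.1 in PORIxrpt2a, a log2 fold change of 1.95 ± 0.43. Both groups were separate again, and the edgeR adjusted p was 0.0750.

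AT2G07718, protein-coding, had 30.2 and 33.1 CPM in PORI and 79.5 and 101 in PORIxrpt2a, at 1.51 ± 0.30 (edgeR adjusted p = 0.0703). AT2G07667, protein-coding with 53.7% of 24 nt reads, had 8.82 and 9.62 CPM in PORI and 39.1 and 22.6 in PORIxrpt2a, at 1.76 ± 0.39. In AT2G07667 the first PORIxrpt2a library was the higher one, whereas in AT2G07718 it was the second.

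AT2G07674, protein-coding, had more 22 nt than 24 nt reads, 39.3% against 29.3% of its 501 counts. It had 20 and 19 reads of 22 nt in PORI and 69 and 89 in PORIxrpt2a. Over all lengths it had 10.4 and 13.6 CPM in PORI and 37.8 and 90.3 in PORIxrpt2a. This was the largest log2 fold change among the 30 genes, 2.41 ± 0.49 (edgeR adjusted p = 0.0708), but its value was 1.68 without PORIxrpt2a library 2 and 2.92 without library 1.

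AT2G07779 and the transcribed pseudogene AT2G07712 had smaller differences. AT2G07779 had 35.6 and 32.6 CPM in PORI and 76.2 and 84.3 in PORIxrpt2a, at 1.23 ± 0.29. AT2G07712 had 18.5 and 16.5 CPM in PORI and 38.9 and 54.2 in PORIxrpt2a, at 1.40 ± 0.32. In both genes the groups were separate. Another 3 genes with lower counts, chosen after their values were seen because an alternative fit called them, had log2 fold changes of 2.12 ± 0.49 (AT2G07666), 2.29 ± 0.63 (AT2G07673) and 2.35 ± 0.60 (AT2G07713). AT2G07666 had 11 and 15 counts in the PORI libraries and 62 and 26 in PORIxrpt2a. The other 2 rest on fewer PORI counts. AT2G07673 had 10 and 6 in PORI and 26 and 25 in PORIxrpt2a, and AT2G07713 had 4 and 9 against 42 and 13.

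Other genes with many counts were higher by a smaller step or did not separate. The transcribed pseudogene AT2G07717 had 53.1 and 53.3 CPM in PORI and 101 and 117 in PORIxrpt2a, at 1.04 ± 0.29. AT2G07709, a transcribed pseudogene too, had 49.8 and 51.3 in PORI and 86.6 and 130 in PORIxrpt2a, at 1.10 ± 0.33. AT2G07698, the protein-coding gene with the most counts of all (1314), overlapped between groups, with 73.9 and 69.8 CPM in PORI and 72.6 and 108 in PORIxrpt2a.

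Genes with few 24 nt reads varied. AT2G07733, a transcribed pseudogene with 18.1% of 24 nt reads in PORI, chosen after its values were seen, had 9.0 and 7.89 CPM in PORI and 15.2 and 25.1 in PORIxrpt2a, at 1.23 ± 0.40. Over all libraries together 25.9% of its reads were 24 nt long, which was its most frequent length. AT2G07706 had its most frequent length at 18 nt, with 26.1% of 915 counts, and stood at 48.2 and 44.9 CPM in PORI and 57.9 and 71.8 in PORIxrpt2a, at 0.48 ± 0.29. In the transcribed pseudogene AT2G07731 reads of 26 nt were the most frequent, 33.2% of 567 counts, and its level was 39.7 and 37.0 CPM in PORI and 29.1 and 16.6 in PORIxrpt2a, at -0.73 ± 0.36. AT2G07727, with 16.7% of 24 nt reads, had 24.4 and 25.2 CPM in PORI and 14.4 and 14.6 in PORIxrpt2a, at -0.77 ± 0.30 (edgeR adjusted p = 0.202). Both AT2G07731 and AT2G07727 were lower in each PORIxrpt2a library than in each PORI library.

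Transfer RNAs carry amino acids to the ribosome. Reads of AT2G07762, AT2G07766 and AT2G07793, the tRNA genes of the insertion with the most counts, had a main length other than 24 nt. The most abundant, the tRNA-Pro gene AT2G07762, had 59.4% of its 850 counts at 25 nt. Its level was 58.4 and 47.4 CPM in PORI and 47.7 and 33.1 in PORIxrpt2a, which overlapped. The tRNA-Ser genes AT2G07766 and AT2G07793 had 64.8% and 65.4% of their reads at 23 nt, on 233 and 211 counts with similar counts in each library, so how far they share reads was not tested. Reads of the tRNA-Cys gene AT2G07763 were spread over more lengths, with 21.8% of its 197 counts at 22 nt, its most frequent length. The main length was 24 nt in the tRNA-Asp gene AT2G07743 (36.9% of 103 counts) and the tRNA-Gly gene AT2G07756 (57.6% of 99). The tRNA-Asn gene AT2G07764 had 39 and 33 counts in the PORI libraries and 0 and 13 in PORIxrpt2a.

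Together the 21 tRNA genes took 0.0164% and 0.0140% of gene-table counts in PORI and 0.0127% and 0.00689% in PORIxrpt2a, lower in both PORIxrpt2a libraries (exact permutation p = 0.333). Of 11 tested, 3 were above 0 and the median log2 fold change was -0.38. By contrast 38 of 50 tested protein-coding genes were above 0, with a median of 0.64, and 16 of 19 transcribed pseudogenes, with a median of 1.04. Among tRNA reads 10.6% were 24 nt long, against 36.9% of protein-coding and 35.4% of transcribed pseudogene reads.

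Among the 54 insertion genes with at least 100 counts, 41 had 24 nt as their most frequent length, and the 24 nt share ran from 3.79% to 63.7%, with a median of 35.9%. Ordered by the 24 nt share in the PORI libraries alone, the 18 genes with the lowest shares, from 4.41% to 21.3%, had a median log2 fold change of -0.13, and 5 were above 0. The middle 18, from 22.2% to 47.7%, had a median of 0.69, and 15 were above 0. The highest 18, from 47.9% to 68.6%, had a median of 1.44, and all 18 were above 0. The minimum of 100 counts was set on both groups together, so a gene could enter through its PORIxrpt2a counts alone. With a minimum of 50 counts in the PORI libraries instead, chosen after the data were seen, 51 genes in 3 sets of 17 had medians of -0.18, 0.79 and 1.23 from the lowest to the highest 24 nt share, with 4, 13 and 15 above 0. Across the 54 genes the 24 nt share in PORI and the fold change had a Pearson r of 0.73 and a Spearman rho of 0.75, as a description only, since genes are not replicates and the PORI counts enter both measures.

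**Figure D4:**
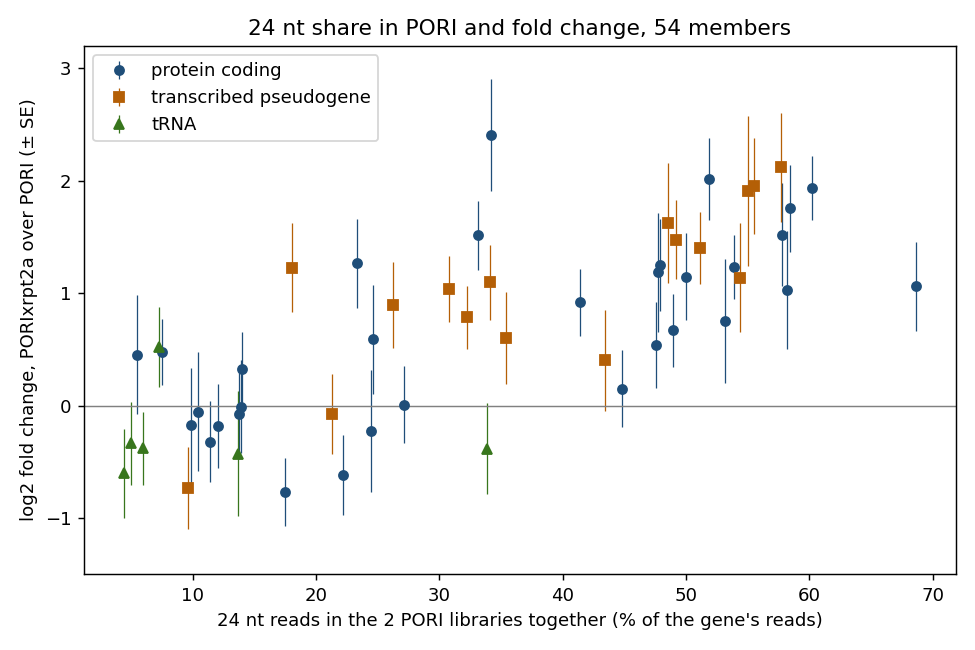
Log2 fold change of PORIxrpt2a over PORI over all lengths (y axis, bars are SE) against the share of 24 nt reads in both PORI libraries together (x axis), for the 54 insertion genes with at least 100 counts, with symbols by gene class. All 18 genes with a share of 47.9% or more lie above 0, while 5 of the 18 with a share of 21.3% or less do. With a minimum of 50 counts in PORI instead, 15 of the 17 genes with the highest shares and 4 of the 17 with the lowest were above 0. PORI counts enter both axes.

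Summed over each of these sets, the highest 18 genes took 0.0250% and 0.0203% of gene-table counts in PORI and 0.0618% and 0.0430% in PORIxrpt2a, a ratio of means of 2.32. The middle 18 took 0.0432% and 0.0394% in PORI and 0.0709% and 0.0576% in PORIxrpt2a, a ratio of 1.56. The lowest 18 took 0.0456% and 0.0367% in PORI and 0.0419% and 0.0256% in PORIxrpt2a, and these groups overlapped. These sets keep the minimum of 100 counts over both groups together, so a gene could enter through its PORIxrpt2a counts. The ratios were not recomputed with the minimum set on PORI counts. In the highest 18 the 24 nt share itself was no higher in PORIxrpt2a, at 55.9% and 53.1% in PORI and 52.8% and 44.2% in PORIxrpt2a, while the 22 nt share was 17.1% and 16.9% in PORI and 21.4% and 28.2% in PORIxrpt2a.

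Fold changes also differed along the run. Of the first 39 insertion genes of the run by gene order 25 were tested and 21 of these were above 0, with a median log2 fold change of 0.61. Of the middle 38, 24 of 28 tested were above 0, with a median of 0.84. Of the last 38, 11 of 24 tested were above 0, with a median of -0.030. The first 39 include 9 of the 21 tRNA genes, the middle 38 include 2 and the last 38 include 10. The 24 nt share of the last 38 was 15.2% and 13.1% in PORI and 22.9% and 20.1% in PORIxrpt2a, against 40.4% and 36.7% in PORI and 45.8% and 36.0% in PORIxrpt2a for the first 39. The middle 38 lay between, at 33.5% and 31.1% in PORI and 40.0% and 33.8% in PORIxrpt2a, while their median fold change was the highest of the 3.

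**Figure D5:**
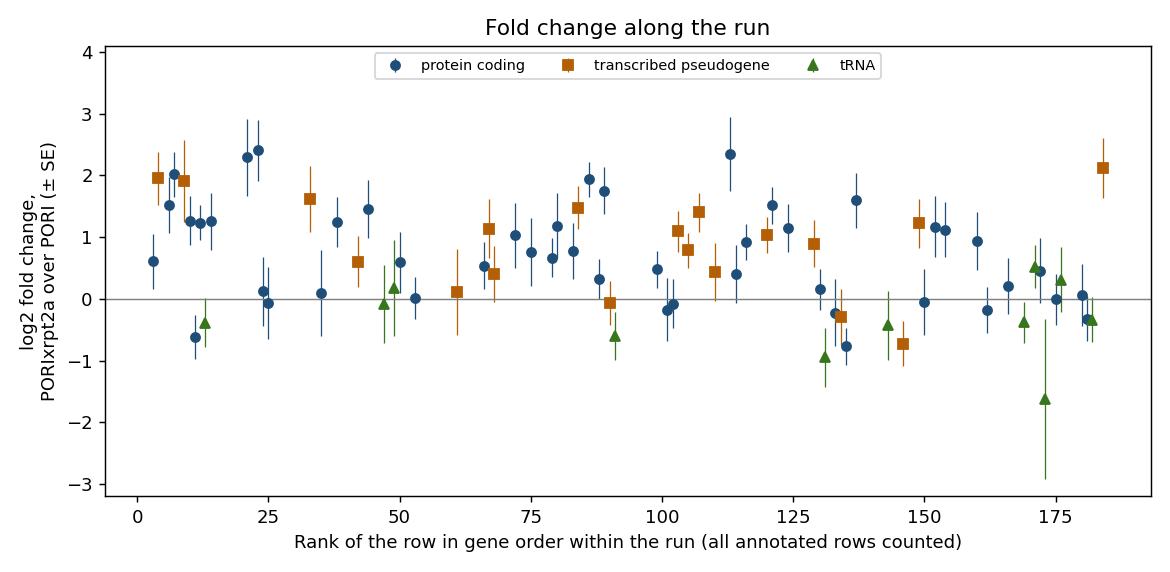
Log2 fold change of PORIxrpt2a over PORI over all lengths (y axis, bars are SE) of the 77 tested insertion genes in the run, by rank in gene order within the run (x axis), with symbols by gene class. Of the first 39 genes of the run 21 of 25 tested lie above 0, of the middle 38 it is 24 of 28, and of the last 38 it is 11 of 24.

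Few insertion genes have a symbol. ABCI4 (AT2G07681), named as an ABC transporter family gene, had 6.0 and 9.13 CPM in PORI and 20.8 and 14.6 in PORIxrpt2a, at 1.25 ± 0.41 (edgeR adjusted p = 0.145), with 53.3% of 24 nt reads. ABCI5 (AT2G07771), of the same family, was below the count filter, with 6 and 7 counts in the PORI libraries and 15 and 2 in PORIxrpt2a. Of the genes outside the run, ABCC13 had 4.41 and 6.17 CPM in PORI and 4.39 and 2.51 in PORIxrpt2a, and MCM5 had 10 counts in all. AT2G07760, just beyond the run and with 63.3% of 24 nt reads, had 10.8 and 14.1 CPM in PORI and 19.2 and 33.1 in PORIxrpt2a, while AT2G07750 had 4.94 and 2.47 in PORI and 1.28 and 0.502 in PORIxrpt2a.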

How the data were processed

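Small RNA libraries of whole seedlings (2 PORI, 2 PORIxrpt2a) were grouped by sample title. Per the submitters' processing notes, the upstream software comprised HTSeq, DESeq2, cutadapt 1.9.1, CASAVA 1.8.2 and FastQC 0.11.2, with build TAIR10. The aligner, strand use and the handling of multi-mapping reads are not given in the sources used here. The authors deposited raw whole-number counts per gene and read length, 18 to 26 nt, and these counts were used as deposited. Depth was 2886928 to 4806891 counts per library in the gene table.

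Counts summed over lengths, and 21, 22 and 24 nt counts, were fitted on the whole gene table with edgeR 4.0.16 (R 4.3.3): TMM, filterByExpr (minimum count 10, minimum total 15), a quasi-likelihood test of group, Benjamini-Hochberg adjustment at 0.05. The fit was tested on simulated data with the same dispersion for all genes and no outlying library. That test therefore does not cover the differences between the libraries used here. An SE is a log2 fold change without its sign over the square root of the F statistic. Shares were compared by exact permutation of libraries, and 95% Wilson intervals cover counting error only. Alternatives were other size factors, filters, DESeq2 1.42.0, a replicate block, and leaving out each library. Python 3.11.15, pandas 2.3.3, numpy 2.4.6, scipy 1.17.1 and matplotlib 3.10.9 were used.

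Names, classes and gene order came from a TAIR10.1 gene table (37898 of 38194 identifiers matched). Named genes are the 30 insertion genes with the most counts. The others named, by symbol, tRNA class, place outside the run or a call in an alternative fit, were added after values were seen. Matching to mitochondrial genes by protein, and grouping by product, were planned and not made. Flanking rows by locus number included 29 rows inside the run, so flanks by chromosome order were added after the data were seen. The members and lists were chosen with earlier results of these data known.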

Additional observations from a re-analysis of the deposited data

How the results depend on the processing

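Calls among the insertion genes depended on the fit. Against 0 by the design as given, 9 insertion genes were called over all lengths without a low-count filter, 9 without structural RNA and organelle genes, 9 with the replicate number as a block and 9 by DESeq2, and leaving out one library gave 0 to 24. The 4 fits with 9 calls each named 12 genes together, and each of the 12 was higher in PORIxrpt2a. Of these, 6 were called in all 4 fits (AT2G07666, AT2G07667, AT2G07674, AT2G07747, AT2G07749 and AT2G07798). In the order given, the 4 fits called 2.29%, 6.78%, 7.35% and 15.2% of all genes they tested. They used the same libraries and so are not independent. The share of all genes called in any or in all 4 of them was not counted. At 24 nt the same fits gave 12 without a filter (551 of 20841 genes), 3 with the block (91 of 4575) and 3 by DESeq2 (121 of 1648), and 0 to 21 without one library (1551 of 4575 without PORIxrpt2a 1). At 22 nt they gave 5 without a filter (190 of 18864), 2 without structural genes (167 of 1647), 13 with the 3-table total as library size (526 of 2001), and 0 to 6 without one library (609 of 2001 without PORIxrpt2a 1). At 21 nt they gave 1 without a filter (82 of 19195), 1 without structural genes (4 of 1176), 1 with the block (9 of 1414), 1 by DESeq2 (12 of 1414), 2 with the 3-table total (143 of 1414), and 0 to 5 without one library (469 of 1414 without PORIxrpt2a 1). With one library left out, the lone library of its group is assumed to vary like the other group. Same-numbered libraries deviated together only weakly (correlation 0.158 over 8110 genes), and the labels tie no batch to the numbers. The median log2 fold change over all lengths was 0.33 with the 3-table total, 0.77 without structural genes and 0.54 to 0.70 without one library. That library size moved the median of all genes from -0.036 to -0.25 over all lengths, from -0.10 to 0.36 at 21 nt, from 0.031 to 0.90 at 22 nt and from -0.052 to -0.20 at 24 nt. The 24 nt share turned to a mean difference of -4.13 points when only 21, 22 and 24 nt reads were the denominator, where the groups overlapped. Of 328 values for the 30 named genes, 12 changed sign, in 4 genes. AT2G07687 (0.0074) went to -0.016 with DESeq2's size factors, -0.19 scaled to the 3 tables, -0.0017 without a filter, -0.040 with at least 50 counts, -0.017 with the block, -0.016 by DESeq2, and -0.28 to 0.23 without one library (-0.042 without PORI 2). AT2G07815 went from 0.15 to -0.092 scaled to the 3 tables, and without one library lay at -0.021 (without PORI 1) to 0.35. Without one library AT2G07806 (-0.18) lay at -0.49 to 0.23 (without PORI 1), and AT2G07774 (0.59) at -0.039 (without PORIxrpt2a 2) to 1.08. The cause of these changes was not tested. The differences in the insertion genes' share of gene-table counts, their 18 to 20, 21 and 22 nt shares, their 24 nt share against the mitochondrial and flanking rows, and their log2 ratio to the mitochondrial rows kept their direction under every alternative run for them. Medians and numbers above 0 of the sets by 24 nt share were recomputed only with the PORI minimum of 50 counts. The summed shares of these sets, and the sets by position, were not recomputed. Depth limits the rarest genes: 43 of 123 insertion genes were too sparse to test.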
